A study of Mus musculus with 8 samples.

Results

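Gcg and Glp1r are 2 of the 32285 genes counted in single T cells from mouse bone marrow, and they were selected by their UMI counts in these same libraries, where earlier results had shown them in T cells of mice with a leukemia fusion gene. A unique molecular identifier (UMI) is the tag that counts 1 captured RNA molecule. Of 53033 cells kept from 56649 deposited barcodes, 336 held at least 1 Gcg UMI, 966 held at least 1 Glp1r UMI, and 7 held both. Since the pattern in these libraries chose both genes, their levels are given below as a description without a test.

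The study asked how bone marrow T cells respond in mice that carry Runx1::Runx1t1, the fusion oncogene of an acute myeloid leukemia subtype. The Runx1::Runx1t1 group carried the conditional fusion allele together with Mx1-Cre (Runx1Runx1t1/+; Mx1-Cre), and the control group, labelled WT, carried the fusion allele without Mx1-Cre. All mice were C57BL/6 sex-matched littermates of unstated age, and both groups were injected with Poly(I:C) into the peritoneum 4 times (5 mg/kg) and examined 4 weeks later. Poly(I:C) raises interferon, which switches on the Mx1 promoter and so Cre in blood-forming and many other cells. Each library pooled the marrow of 2 mice, and each group had 2 libraries, so the pool is the replicate. T cells were enriched by removing other cells and were then sorted as DAPI- mCherry- CD3+. As mCherry marks cells in which the fusion is switched on, the sorted T cells were those without the mark. Gene expression was read from the 5′ ends of RNA, and a second library of each pool gave the α and β chains of the T cell receptor (TCR). Cells with the same α and β chain CDR3 nucleotide sequences in 1 pool are called a clonotype.

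Gcg encodes proglucagon, the precursor of a family of peptide hormones, and is known from α cells of the pancreatic islet, L cells of the gut and a few neurons of the brain stem. Prohormone convertase 2 (Pcsk2) releases glucagon from it and prohormone convertase 1 (Pcsk1) releases the glucagon-like peptides GLP-1 and GLP-2, while dipeptidyl peptidase 4 (Dpp4, the T cell surface protein CD26) inactivates GLP-1. Glp1r encodes the GLP-1 receptor, a class B G protein-coupled receptor that signals through Gs, adenylate cyclase and cyclic AMP, and is best known from insulin-secreting β cells. Gzmk encodes granzyme K, a protease of activated T cells, and Pdcd1 encodes the inhibitory receptor PD-1. In GRCm38 Gcg lies on the minus strand at chr2:62474530-62483650, where no other annotated gene overlaps it, and Glp1r lies on the plus strand at chr17:30901817-30940791, where 2 noncoding genes on the other strand overlap it. Of these 2 only Gm10503 was in the count tables, with 4 UMIs in 4 cells of the second Runx1::Runx1t1 pool, 2 of them cells that also held Glp1r. The annotation behind the counts is not given in the sources used here.

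The 4 libraries were of like depth. They held 13633 to 14664 barcodes and 90958101 to 102883449 UMIs, and after filtering 12764 to 13795 cells with median depths of 6175 to 6328 UMIs. A UMI of Cd3d, Cd3e or Cd3g was found in 93.0% to 94.9% of the kept cells. Myeloid genes were more frequent in the control pools, with a UMI in 26.2% and 17.1% of cells against 6.52% and 6.36% in the Runx1::Runx1t1 pools, and NK genes took 34.9% and 33.1% against 20.3% and 11.2%. The part of these other cells in the differences between groups below was not tested. Most values are given within classes set by Cd4 and Cd8 UMIs. These classes required no Cd3 UMI, so they can still hold other cells. Between 256 and 306 barcodes were shared by any 2 libraries, and no shared barcode held Gcg or Glp1r in both.

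The UMIs of both genes sat in few clonotypes, and the CDR3 sequences of the 5 that carry this result are printed 5′ to 3′ in lower case, α chain before β chain. The first pair are the clonotypes with most Glp1r UMIs in each Runx1::Runx1t1 pool, the next pair those with most Gcg UMIs in each, and the last is an expanded Cd4 clonotype without a UMI of either gene.
TRAV6-6 TRAJ48 α, 1106 cells, Glp1r, second pool: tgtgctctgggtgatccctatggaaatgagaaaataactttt
TRBV1 TRBJ2-7 β of the same clonotype: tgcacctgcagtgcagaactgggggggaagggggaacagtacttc
TRAV9D-3 TRAJ12 α, 113 cells, Glp1r, first pool: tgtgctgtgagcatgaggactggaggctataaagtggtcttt
TRBV17 TRBJ2-5 β of the same clonotype: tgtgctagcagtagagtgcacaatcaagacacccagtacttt
TRAV14-2 TRAJ9 α, 136 cells, Gcg, first pool: tgtgcagcagtgggctacaaacttaccttc
TRBV10 TRBJ1-1 β of the same clonotype: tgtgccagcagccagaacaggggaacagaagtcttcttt
TRAV9-2 TRAJ56 α, 22 cells, Gcg, second pool: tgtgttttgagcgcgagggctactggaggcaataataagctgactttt
TRBV5 TRBJ1-2 β of the same clonotype: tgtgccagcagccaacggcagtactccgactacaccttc
TRAV14D-1 TRAJ15 α, 122 cells, neither gene, second pool: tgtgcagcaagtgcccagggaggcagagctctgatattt
TRBV10 TRBJ2-5 β of the same clonotype: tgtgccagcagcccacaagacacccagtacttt

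Gcg was found in the Runx1::Runx1t1 pools and hardly at all in the controls. Over all deposited barcodes the 2 Runx1::Runx1t1 pools held 2307 and 2762 Gcg UMIs and the 2 control pools held 1 and 0. The single control UMI lay in a barcode of 14845 UMIs that was removed as a doublet. Among kept cells Gcg had 2157 UMIs in 110 cells and 2715 UMIs in 226 cells, or 22.8 and 29.2 on the counts-per-million scale (CPM, the gene's share of all UMIs of the cells concerned), and the controls had none. The groups did not overlap, and a share of cells of up to 0.0235% and 0.0223% is still allowed by the count of 0 in the 2 control pools.

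Glp1r differed between the Runx1::Runx1t1 pools far more than Gcg did. It had 149 and 1413 UMIs over all barcodes of the Runx1::Runx1t1 pools against 10 and 18 in the controls. Among kept cells 92 and 853 cells held it, 0.667% and 6.56%, against 8 and 13 cells, 0.0627% and 0.0966%. The level was 1.42 and 13.6 CPM against 0.0962 and 0.187 CPM. Both Runx1::Runx1t1 pools lay above both controls, and the second lay far above the first.

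Most Gcg UMIs lay in cells with Cd4 and most Glp1r UMIs in cells with Cd8 genes. A cell with a UMI of Cd8a or Cd8b1 and none of Cd4 was put in the Cd8 class, the reverse in the Cd4 class, and the rest held both or neither. The Cd4 class held 19.1% and 19.0% of the kept cells of the Runx1::Runx1t1 pools but 77.0% and 86.8% of their Gcg UMIs. Cells with UMIs of both Cd4 and Cd8 genes held another 19.1% and 10.5% of the Gcg UMIs. The Cd8 class, with 50.2% and 56.3% of the cells, held 3.01% and 1.84%, and in the first pool 56 of its 65 Gcg UMIs came from 1 cell. Glp1r was distributed the other way, with 87.3% and 93.4% of its UMIs in the Cd8 class and 6 and 18 UMIs in the Cd4 class.

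Cells of both kinds carried Gzmk, and most also carried Pdcd1. Gzmk+ cells of any class held 94.8% and 79.1% of the Gcg UMIs while making up 20.6% and 38.0% of the cells. Cells with both Gzmk and Pdcd1 UMIs held 75.8% and 57.9% of the Gcg UMIs and were 6.87% and 20.6% of the cells. For Glp1r the Gzmk+ cells held 92.5% and 93.3% of the UMIs, and the Gzmk+ Pdcd1+ cells 79.9% and 79.6%.

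**Figure D1:**
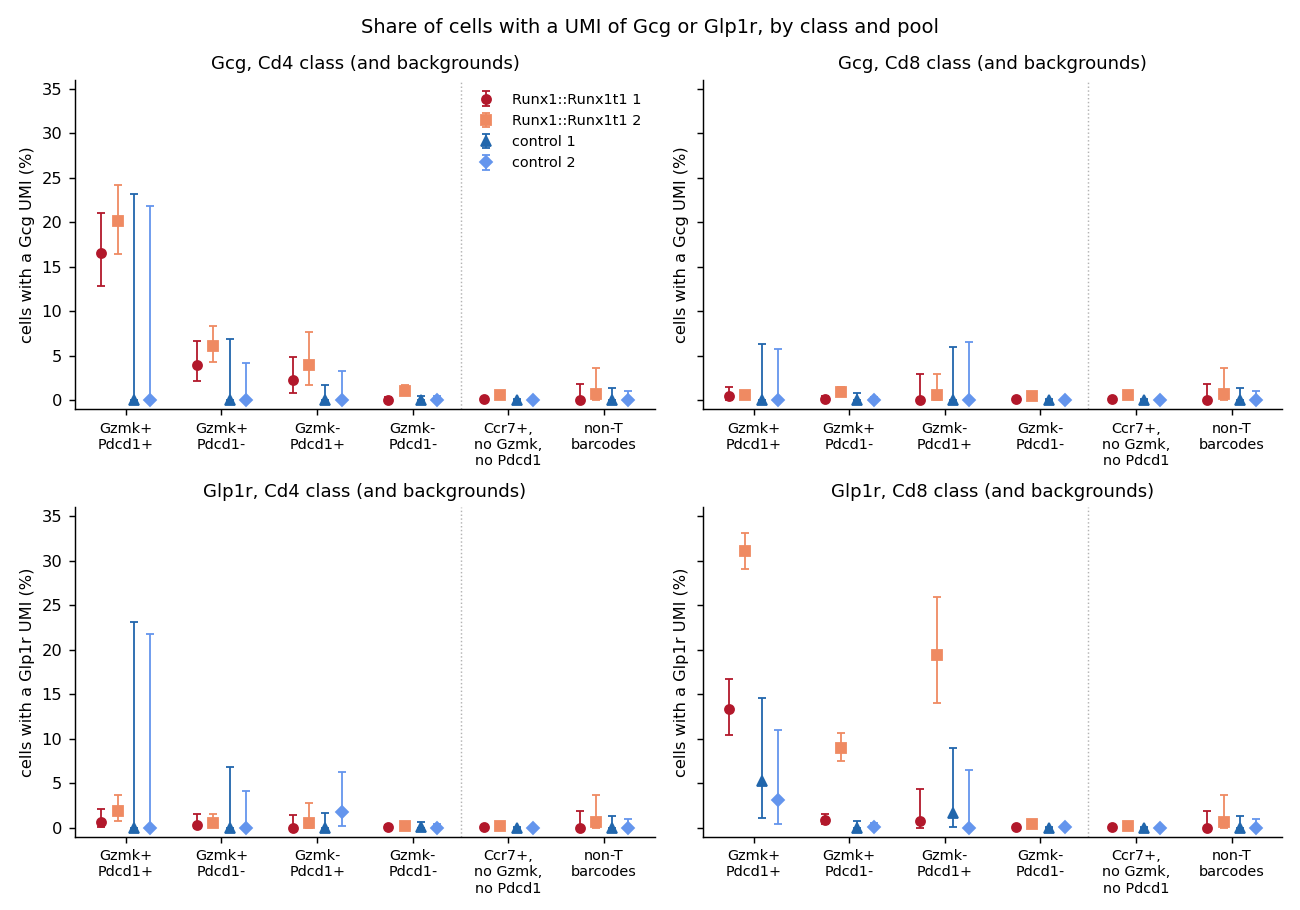
Share of cells with at least 1 Gcg or Glp1r UMI (percent, y axis) in the Cd4 and Cd8 classes split by Gzmk and Pdcd1 UMIs, and in 2 classes that should lack both genes (x axis), for the 4 pools; points are pools and bars are exact 95% binomial intervals, which cover counting error only. In the Gzmk+ Pdcd1+ cells Gcg reaches 16.6% and 20.1% in the Cd4 class and Glp1r 13.3% and 31.1% in the Cd8 class of the Runx1::Runx1t1 pools, while Glp1r was also in 19.5% of the Gzmk- Pdcd1+ and 9.01% of the Gzmk+ Pdcd1- Cd8 cells of the second pool, Gcg in 3.98% and 6.09% of the Gzmk+ Pdcd1- Cd4 cells, and Glp1r in 5.26% and 3.17% of the few control Gzmk+ Pdcd1+ Cd8 cells.

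Within the Cd4 class 77 of 2631 cells (2.93%, 95% exact binomial interval 2.32 to 3.64) and 142 of 2473 cells (5.74%, 4.86 to 6.73) of the Runx1::Runx1t1 pools held Gcg, against 0 of 1187 and 0 of 1101 control cells. The Gcg level was 112 and 155 CPM, a mean of 134 ± 31.0 (SD, n = 2). This was 264-fold the mean of the controls when these were set at a floor of 3 UMIs per library. That floor treats UMIs as independent, whereas the 77 and 142 cells held 1661 and 2356 UMIs, so the fold is no lower bound. Among Gzmk+ Pdcd1+ cells of the Cd4 class 56 of 338 (16.6%) and 86 of 428 (20.1%) held Gcg, with 1222 and 1337 UMIs or 615 and 423 CPM. The controls had only 14 and 15 such cells, none with Gcg, which allows shares of up to 21.4% and 20%. With so few control cells, a control share like that of the Runx1::Runx1t1 pools can therefore not be told from 0 within this state. Against the same floor the level was 18.3-fold higher, which is no lower bound either, as 1 cell with Gcg can hold many UMIs.

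The share with Gcg fell with each marker lost. Gzmk+ Pdcd1- cells of the Cd4 class held Gcg in 14 of 352 (3.98%) and 35 of 575 (6.09%) cells, against 0 of 52 and 0 of 87 in the controls. Gzmk- Pdcd1+ cells held it in 6 of 266 and 8 of 201 cells, where 386 of the second pool's 511 UMIs came from 1 cell. Cells of the Cd4 class with neither marker held it in 1 of 1675 and 13 of 1269. Of the 43 and 75 cells with 5 or more Gcg UMIs, 26 and 44 were Gzmk+ Pdcd1+ cells of the Cd4 class and 1 and 1 were of the Cd8 class.

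Within the Cd8 class 78 of 6921 cells (1.13%) and 791 of 7326 cells (10.8%) held Glp1r in the Runx1::Runx1t1 pools, against 4 of 6093 (0.0656%) and 6 of 6869 (0.0873%) in the controls. Most of them were Gzmk+ Pdcd1+: 64 of 481 (13.3%, 10.4 to 16.7) and 623 of 2005 (31.1%, 29.1 to 33.1), against 3 of 57 (5.26%, 1.10 to 14.6) and 2 of 63 (3.17%, 0.387 to 11). These shares averaged 22.2% ± 12.6 and 4.22% ± 1.48 (SD, n = 2 and 2), and the intervals of the first Runx1::Runx1t1 pool and of both controls overlapped. The level in these cells was 32.2 and 68.1 CPM against 6.77 and 13.5, the latter from 5 UMIs of which 4 were in 1 cell. The number of Gzmk+ Pdcd1+ cells itself also differed, 481 and 2005 against 57 and 63, and the control shares rest on 3 and 2 cells with Glp1r.

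Outside that state Glp1r was frequent only in the second Runx1::Runx1t1 pool. Gzmk- Pdcd1+ cells of the Cd8 class held it in 1 of 124 and 36 of 185 (19.5%) cells, and Gzmk+ Pdcd1- cells in 11 of 1234 (0.891%) and 116 of 1288 (9.01%). Cells with neither marker held it in 2 of 5082 and 16 of 3848 (0.416%). Cells with UMIs of Cd4 and Cd8 genes together were deeper, with median depths of 8837.5 and 10106 UMIs among their Gzmk+ Pdcd1+ cells, and of these 12 of 78 and 19 of 200 held Gcg and 3 of 78 and 24 of 200 held Glp1r. Whether some of these were droplets with cells of both kinds was not tested.

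Free RNA in the droplets can give UMIs in cells that do not make a gene. Empty droplets were not analysed here and the part of free RNA was not tested, so shares in cells that should lack the genes are set beside the others. Of the non-T barcodes (median depths 10694 and 11178 UMIs) 0 of 198 and 1 of 150 held Gcg in the Runx1::Runx1t1 pools, and as many held Glp1r. Among Ccr7+ T cells without Gzmk or Pdcd1, which resemble naive cells and were deeper than the average cell (median 7790.5 and 7923 UMIs), Gcg was in 0.129% and 0.512% and Glp1r in 0.0368% and 0.245%. The Gcg shares of the Cd8 class as a whole, 0.144% and 0.546%, were close to those shares. Of the 5432 and 4492 Ccr7+ cells 3969 and 3176 were themselves of the Cd8 class. The Glp1r shares of the Cd4 class were 0.152% and 0.566%, with 0.0842% and 0.182% in the controls. The Gcg shares in Gzmk+ Pdcd1+ cells of the Cd4 class and the Glp1r shares in those of the Cd8 class were higher than in the Ccr7+ cells at lower depth, with medians of 5293 and 6141.5 UMIs for the Cd4 class and 5791 and 6121 for the Cd8 class.

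The ratio of Gcg and of Glp1r to Gzmk UMIs differed between the classes, whose cells were selected for Gzmk UMIs. For each 1000 Gzmk UMIs there were 617 and 456 Gcg UMIs in Gzmk+ Pdcd1+ cells of the Cd4 class and 0.786 and 1.48 in those of the Cd8 class. Glp1r showed the opposite order, with 39.7 and 88.4 per 1000 Gzmk UMIs in the Cd8 class, 13.6 and 25.4 there in the controls, and 1.01 and 3.75 in the Cd4 class of the Runx1::Runx1t1 pools.

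Shares were also computed after each cell was thinned to 2000 UMIs. Gcg was then in 11.9% and 13.1% of the Gzmk+ Pdcd1+ cells of the Cd4 class, with 1 and 1 shallower cells left out. Glp1r was in 5.93% and 12.8% of those of the Cd8 class against 1.79% and 1.61% in the controls, with 9, 17, 1 and 1 cells left out. In the second Runx1::Runx1t1 pool the thinned share of Glp1r in Gzmk- Pdcd1+ cells of the Cd8 class was 13.0%, and thus no lower than in the Gzmk+ Pdcd1+ cells. The loss on thinning was larger for Glp1r than for Gcg.

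The number of UMIs per cell set the 2 genes apart. Among cells with Gcg, 38 (34.5%) and 103 (45.6%) held 1 UMI, yet single cells held up to 298 and 386. Those 2 cells devoted 2.57% and 2.45% of all their UMIs to Gcg, and the next held 285 and 201 in the first pool and 182 and 118 in the second. The 43 and 75 cells with 5 or more UMIs held 94.7% and 91.5% of the Gcg UMIs, and the 10 highest cells held 63.7% and 42.7%. Glp1r never exceeded 4 and 5 UMIs in a cell of the Runx1::Runx1t1 pools or 1 and 4 in the controls, and 64.1% and 65.4% of its cells held 1.

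**Figure D2:**
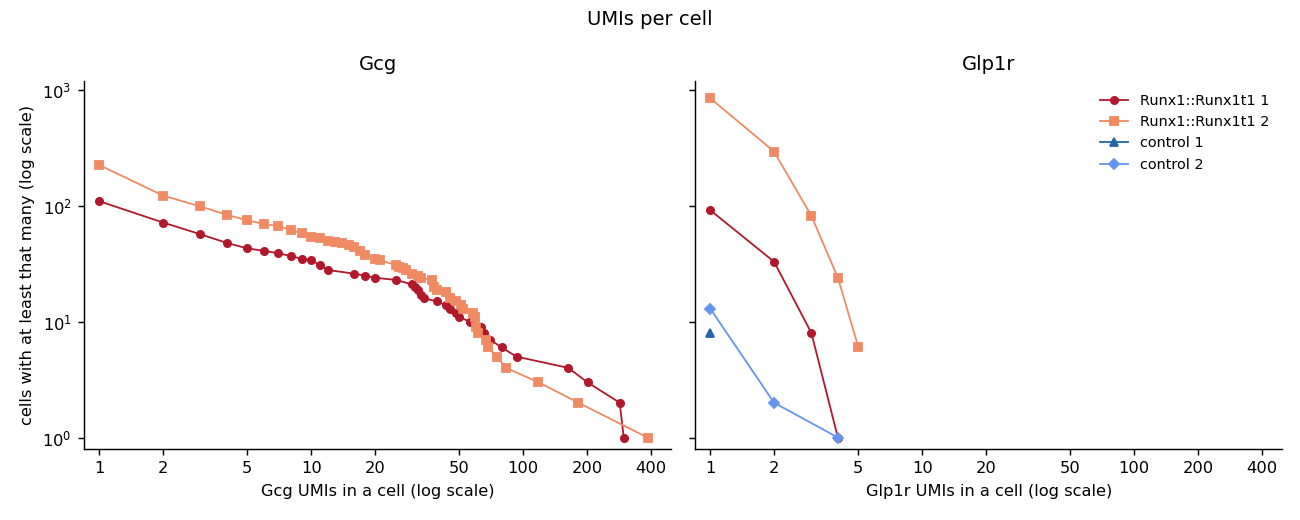
Number of cells with at least a given number of UMIs of Gcg and of Glp1r in 1 cell (both axes logarithmic), 1 line per pool. The Gcg lines of the Runx1::Runx1t1 pools run out to 298 and 386 UMIs in 1 cell, while the Glp1r lines end at 4 and 5.

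Clonotypes held the clearest structure. A pair of α and β chains was read for cells that held 1628 and 1808 of the Gcg UMIs and 109 and 1039 of the Glp1r UMIs, and the cells of the remaining UMIs have no clonotype. Gcg was in 33 of 7489 and 78 of 5405 clonotypes, of which 13 and 41 consisted of 1 cell, and 12 and 18 clonotypes held a cell with 5 or more UMIs. Glp1r was in 15 and 58 clonotypes. The 5 clonotypes with most UMIs held 87.1% and 77.3% of the Gcg UMIs and 90.8% and 87.5% of the Glp1r UMIs in paired cells.

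The clonotype TRAV6-6 TRAJ48 TRBV1 TRBJ2-7 of the second pool held most of the Glp1r UMIs of that pool. It had 1106 cells, 521 of them with Glp1r (47.1%, 44.1 to 50.1), and 779 UMIs or 75.0% of the pool's Glp1r UMIs in paired cells. Gzmk was found in 95.8% of its cells, Pdcd1 in 82.1%, Lag3, another inhibitory receptor, in 94.8%, and Adgrg1, an adhesion G protein-coupled receptor of cytotoxic lymphocytes, in 73.8%. Only 3 of its cells held Gcg. In the first pool TRAV9D-3 TRAJ12 TRBV17 TRBJ2-5 had Glp1r in 43 of 113 cells (38.1%, 29.1 to 47.7) and 67.0% of the UMIs. The leading clonotypes of the 2 pools thus had shares whose intervals overlapped, although the pools differed in the size of the clonotype, 113 against 1106 cells.

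Other expanded Cd8 clonotypes differed widely in Glp1r, also where Gzmk, Pdcd1 and Lag3 were as frequent. In the second pool TRAV12D-2 TRAJ5 TRBV19 held Glp1r in 29 of 63 cells and TRAV14D-1 TRAJ13 TRBV29 in 28 of 57. TRAV9D-3 TRAJ58 TRBV20 held it in 1 of 130 cells, although 100% of them held Gzmk, 76.9% Pdcd1 and 94.6% Lag3. TRAV8D-2 TRAJ5 TRBV26, with Gzmk in 92.4% but Pdcd1 in only 8.72% of its cells, held it in 1 of 172. In the first pool TRAV16N TRAJ22 TRBV5 held it in 13 of 64 cells (20.3%) and TRAV7-4 TRAJ18 TRBV31 in 2 of 103, where 95.1% of the cells held Gzmk and 67.0% Pdcd1. Of clonotypes of 10 or more cells, 6 of 28 and 18 of 26 Cd8 clonotypes held any Glp1r UMI, against 1 of 23 and 3 of 18 Cd4 clonotypes.

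Gcg was spread over Cd4 clonotypes with a like unevenness. TRAV14-2 TRAJ9 TRBV10 TRBJ1-1, the largest Gcg clonotype of the first pool, had 508 Gcg UMIs (31.2% of those in paired cells) in 36 of 136 cells (26.5%, 19.3 to 34.7), with at most 93 in a cell and no Glp1r. Gzmk was in 95.6%, Pdcd1 in 83.8% and Lag3 in 96.3% of its cells. TRAV9-2 TRAJ56 TRBV5 TRBJ1-2 of the second pool had 405 UMIs (22.4%) in 16 of only 22 cells (72.7%, 49.8 to 89.3), and 3 of its cells held Glp1r. Its cells were deeper than those of TRAV14-2 TRAJ9 TRBV10 TRBJ1-1, with a median of 9981 against 5104 UMIs, so the 2 shares are not at like depth. By contrast the largest Cd4 clonotype of the second pool, TRAV14D-1 TRAJ15 TRBV10 TRBJ2-5, had no Gcg UMI in 122 cells, which allows a share of up to 2.46%. Gzmk was in 94.3% of its cells, but Pdcd1 in 13.9% and Lag3 in 7.38%. Of the 12 large Cd4 clonotypes drawn below, the 5 with Gcg in 3 or more cells had Pdcd1 in 53.5% to 83.8% of their cells, and the other 7 in 6.52% to 34.3%, a split made after these values were seen.

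Clonotypes of 1 cell and large clonotypes both held Gcg. The cells with 386 and 298 UMIs were the single cells of their clonotypes, and a clonotype of 3 cells held 293 UMIs with 285 in 1 of them. Of Cd4 clonotypes of 10 or more cells, 10 of 23 and 9 of 18 held Gcg, against 1 of 28 and 10 of 26 Cd8 clonotypes. The Cd4 clonotypes of this size held 706 and 1066 Gcg UMIs in 618 and 639 cells. The Cd8 clonotypes held only 1 and 24 in 834 and 2158 cells. The control pools had 4 and 3 Cd4 clonotypes of that size, none with Gcg, and 5 and 16 Cd8 clonotypes, of which 1 and 0 held Glp1r.

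**Figure D3:**
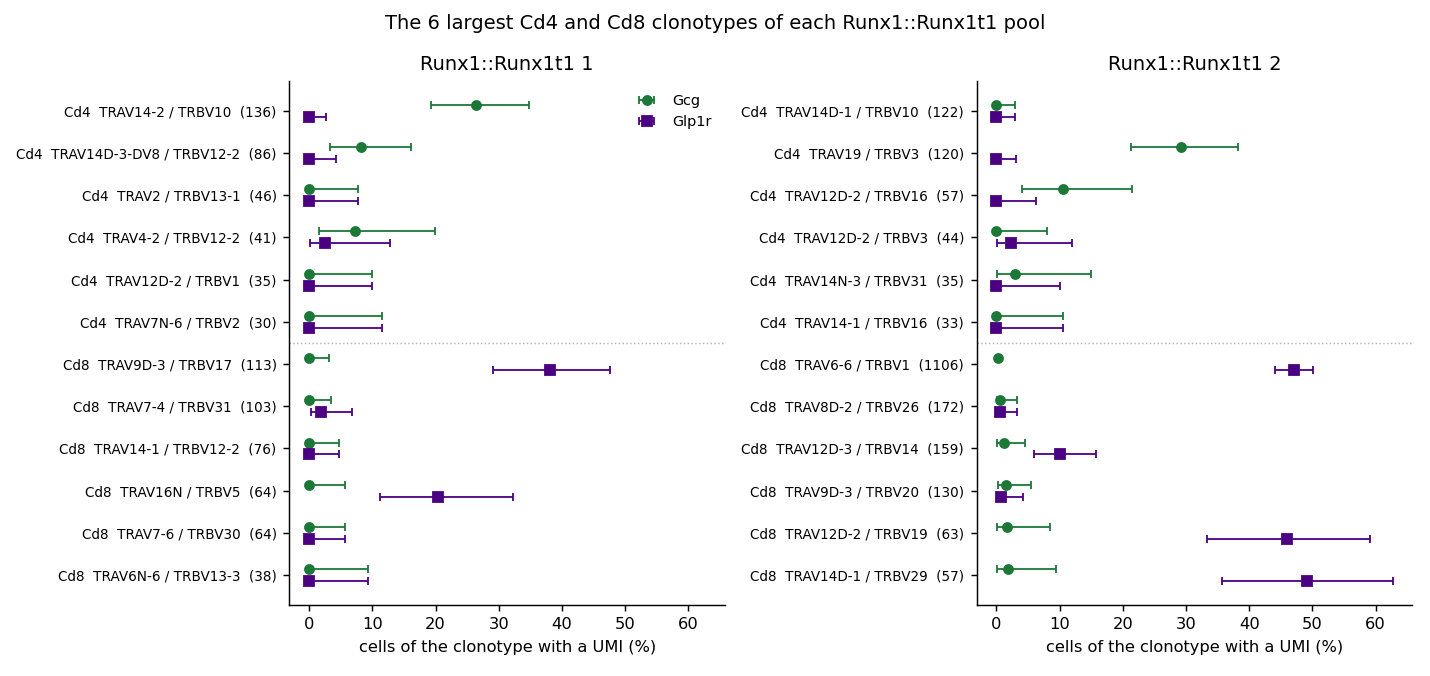
Share of cells with a Gcg UMI (circles) and with a Glp1r UMI (squares), in percent with exact 95% binomial intervals, in the 6 largest Cd4 and the 6 largest Cd8 clonotypes of each Runx1::Runx1t1 pool, with the number of cells in parentheses. Gcg appears in some Cd4 clonotypes and Glp1r in some Cd8 clonotypes, and the Glp1r share of the Cd8 clonotypes runs from 0 to 49.1%.

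Some Gcg clonotypes had near relatives with the same V and J genes and CDR3 lengths, which are shown because they are separate clones with like receptors. In the sequences below capitals mark the bases that differ from the largest clonotype of the family, the first of which is TRAV19 TRAJ57 TRBV3 TRBJ1-2.
TRAV19 TRAJ57 α, 120 cells of the second pool, 265 Gcg UMIs: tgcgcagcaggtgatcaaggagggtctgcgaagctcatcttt
TRBV3 TRBJ1-2 β of the same clonotype: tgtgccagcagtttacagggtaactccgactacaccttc
α of a clonotype of 23 cells of the second pool, 99 Gcg UMIs: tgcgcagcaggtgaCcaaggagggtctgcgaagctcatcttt
β of the same clonotype: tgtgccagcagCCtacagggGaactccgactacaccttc
α of a clonotype of 8 cells of the first pool, 0 Gcg UMIs: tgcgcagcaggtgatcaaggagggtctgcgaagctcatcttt
β of the same clonotype: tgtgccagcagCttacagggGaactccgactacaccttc
TRAV12D-2 TRAJ57 α, 57 cells of the second pool, 232 Gcg UMIs: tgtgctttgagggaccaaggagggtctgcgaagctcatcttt
TRBV16 TRBJ1-5 β of the same clonotype: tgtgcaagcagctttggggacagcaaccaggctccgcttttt
α of a clonotype of 10 cells of the first pool, 79 Gcg UMIs: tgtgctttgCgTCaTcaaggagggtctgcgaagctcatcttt
β of the same clonotype: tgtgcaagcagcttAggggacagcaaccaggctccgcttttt

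The TRAV19 TRAJ57 family had 7 clonotypes with 158 cells and 370 Gcg UMIs, and 6 of them encoded the same pair of CDR3 amino acid sequences. Those 6 comprised 157 cells, 9 in the first Runx1::Runx1t1 pool, 148 in the second and 0 in the controls. Gcg was in 35 of 120 cells (29.2%, 21.2 to 38.2) of the largest and in 7 of 23 of the next, and in no cell of the family in the first pool, where it had 9 cells of that receptor. The TRAV12D-2 TRAJ57 family had 3 clonotypes, 68 cells and 311 Gcg UMIs, with Gcg in 6 of 57 cells of the second pool, 1 of them with 118 UMIs, and in 3 of 10 cells of the first. Exactly the same nucleotide pair occurred in both Runx1::Runx1t1 pools for 5 clonotypes, of which 1 held a UMI of either gene and none held one in both pools.

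The genes that make active peptide from proglucagon were scarce. Pcsk2 had 0 UMIs in the Runx1::Runx1t1 pools and 1 in the controls, and Pcsk1 had 91 and 66, with 1 cell that also held Gcg. Dpp4 and Furin, a general prohormone convertase, were common, with UMIs in 100 and 77 of the 336 Gcg cells. By pool, 25 of 110 and 75 of 226 Gcg cells held Dpp4, and 27 and 50 held Furin. Of all 13795 and 13010 kept cells of these pools 2959 and 2706 held Dpp4, 2936 and 2989 Furin, and 45 and 34 Pcsk1. Of the other hormone genes of the family Gip, Vip, Adcyap1 and Ghrh had no UMI and Sct had 4 against 9. Among receptors Gcgr, the glucagon receptor, Adcyap1r1 and Ghrhr had none, Glp2r had 4 against 5, Gipr 7 against 2 and Sctr 16 against 19. Vipr1, the VIP receptor of T cells, was the common member, with 2419 against 2489 UMIs, and 13 of its cells held Gcg and 11 held Glp1r.

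Other islet and gut hormone genes were at or near 0. Ins1, Ins2, Sst, Ppy, Pyy, Cck, Iapp and Ttr had no UMI in any kept cell, and Chga and Chgb had 2 and 1 UMIs in the Runx1::Runx1t1 pools against 15 and 4 in the controls, 1 of the Chga UMIs in a cell with Gcg. Of transcription factors known at Gcg in islet and gut, Pax6, Cdx2 and Pou3f4 had no UMI, and Isl1, Foxa2, Nkx2-2 and Neurod1 had 1 or 2 in the Runx1::Runx1t1 pools. Of the genes next to Gcg, Fap, which lies 17.3 kb away, had 0 and 2 UMIs in Gzmk+ Pdcd1+ Cd4 class cells with at least 2 Gcg UMIs and 1 and 0 in those with none. Dpp4, 62.3 kb away, was at 32.3 and 56.2 CPM against 25.8 and 25.0 in the same cells, without a call in their comparison further below. Ifih1, 112 kb away, was at 38.7 and 37.5 against 39.6 and 27.4, and Gca, 181 kb away, at 9.68 and 10.2 against 6.29 and 7.77. Slc4a10 and Kcnh7 had no UMI in these cells.

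Sums of UMIs per pool were compared with edgeR's quasi-likelihood test, and genes with a Benjamini-Hochberg adjusted p under 0.05 were called. In the Cd8 class 8 of 13426 genes (0.0596%) were called between the groups, 5 higher (0.0372%) and 3 lower (0.0223%) with the fusion, and none belonged to the gene lists on the glucagon family, processing, cyclic AMP, cytotoxic, inhibitory or naive genes. Values of Dpp4 were 43.1 and 39.3 CPM against 55.5 and 47.7 (log2 fold change -0.38 ± 0.12 SE, adjusted p = 0.168), and those of Vipr1 15.3 and 12.6 against 17.4 and 14.6 (-0.25 ± 0.16, adjusted p = 0.406). The called genes included Spp1, which encodes osteopontin, with 9.06 and 15.1 CPM against 0.251 and 0.380 (5.17 ± 0.34, adjusted p = 0.0304), and Eomes, a transcription factor of cytotoxic T cells, with 125 and 135 against 59.9 and 52.7 (1.15 ± 0.08, adjusted p = 0.0322). Both calls were lost without the first and without the second control pool, with adjusted p up to 0.243. The number called was 1334 without the first and 198 without the second Runx1::Runx1t1 pool, and 4 without the first and 11 without the second control pool.

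Between Gzmk+ Pdcd1+ and Gzmk- Pdcd1- cells of the Cd8 class 3874 of 11922 genes (32.5%) were called with the pool as a block, 13.9% higher and 18.6% lower, so a called gene is common there. Besides Gzmk, which defines the classes, the other 9 cytotoxic genes were higher, as were the other 7 inhibitory genes besides Pdcd1, and all 7 naive genes were lower. Their medians were 2.84, 3.96 and -2.95 on the log2 scale, the first 2 with the defining genes included, against -0.04 for all genes tested. Of the genes that pass on the signal of a Gs-coupled receptor, 12 of 23 tested were called, 5 higher and 7 lower, a median of 0.15, and of the 7 Grk6 had a log2 fold change of 0.01 without normalization factors. Without the first or the second Runx1::Runx1t1 pool 1727 and 2383 genes were called. Crem, a cyclic AMP-responsive transcription factor, was higher, at 35.4 and 38.0 CPM against 14.5 and 15.4 in the Runx1::Runx1t1 pools and 29.3 and 18.9 against 11.5 and 10.1 in the controls (0.94 ± 0.14, adjusted p = 0.000653). Rapgef4, a cyclic AMP-activated exchange factor, was lower, at 0.319 and 0.5 against 9.58 and 11.5 in the Runx1::Runx1t1 pools and 2.26 and 0 against 12.3 and 9.88 in the controls (-4.77 ± 0.38, adjusted p = 2.72e-05).

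Vipr1, the most abundant of the related receptor genes, was lower in the Gzmk+ Pdcd1+ state. It had 3.19 and 2.22 CPM in Gzmk+ Pdcd1+ cells and 17.1 and 17.9 in Gzmk- Pdcd1- cells of the Runx1::Runx1t1 pools, and 2.26 and 5.39 against 18.4 and 15.3 in the controls (-3.08 ± 0.25, adjusted p = 2.69e-05). Dpp4 was also lower in the Gzmk+ Pdcd1+ cells (-1.19 ± 0.18, adjusted p = 0.000762), with 22.3 and 21.5 CPM against 44.7 and 46.5 in the Runx1::Runx1t1 pools. The controls were uneven, with 58.7 and 24.3 against 56.0 and 48.0.

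Within Gzmk+ Pdcd1+ cells of the Cd8 class 109 of 8878 genes (1.23%) were called between the groups, 0.698% higher and 0.529% lower. Of the inhibitory list 5 of 8 were higher, among them Lag3 with 446 and 602 CPM against 187 and 113 (1.73 ± 0.22, adjusted p = 0.0208) and Tigit with 907 and 845 against 361 and 359 (1.22 ± 0.13, adjusted p = 0.0165). Of the cytotoxic list 3 of 10 were higher, and Ccl5, a chemokine, rose by 1.25 ± 0.12 (adjusted p = 0.0165). Of the naive list 3 of 7 were lower, including Tcf7, a factor of less differentiated cells, at 69.8 and 33.2 against 259 and 189 (-2.25 ± 0.36, adjusted p = 0.0271). None of 18 cyclic AMP genes was called, at a median of 0.10 against 0.00 for all genes. These calls rest on 57 and 63 control cells: without the first control pool no gene was called by edgeR, 1210 having an unadjusted p under 0.05, and without the second 1 was. Without the first or the second Runx1::Runx1t1 pool 552 and 253 were called.

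In the Cd4 class, where Gcg lay, 240 of 11740 genes (2.04%) were called between the groups, 1.34% higher and 0.707% lower. Gcg is counted among the higher genes but chose the comparison, so that its call is no result. Cytotoxic genes were higher for 6 of 10: Gzmk had 217 and 361 CPM against 22.4 and 35.9 (3.35 ± 0.30, adjusted p = 0.00625), Ccl4 498 and 714 against 78.8 and 57.4 (3.20 ± 0.20, adjusted p = 0.00211), and Nkg7, Ccl3, Ccl5 and Fasl were the others. Inhibitory genes were higher for 3 of 8, with Havcr2 (TIM-3) at 14.3 and 16.8 against 0.824 and 3.11 (3.04 ± 0.40, adjusted p = 0.0204). Of 25 cyclic AMP genes 2 were called, Crem at 45.6 and 40.5 against 28.7 and 23.7 (0.77 ± 0.13, adjusted p = 0.0365) and Pde4d, which degrades cyclic AMP, at 87.3 and 96.0 against 56.7 and 53.0 (0.79 ± 0.07, adjusted p = 0.00794). Spp1 was at 151 and 103 against 14.2 and 8.12 (3.56 ± 0.27, adjusted p = 0.00381). The lower genes included the myeloid genes S100a8 (-4.23 ± 0.77, adjusted p = 0.0494) and S100a9 (-4.04 ± 0.66, adjusted p = 0.0364). The part of cells other than T cells in the calls of this class was not tested. Without the first Runx1::Runx1t1 pool 619 genes were called, and without the first or the second control pool 611 and 569.

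Mast cell genes, chosen after their values were seen, rose in the same sums, and their part in these results was not tested. Cpa3, a mast cell protease, was at 160 and 84.2 CPM in the Cd4 class against 0.495 and 0.518 (7.93 ± 0.59, adjusted p = 0.00357). Over all classes Cpa3 had 45308 UMIs in the Runx1::Runx1t1 pools against 125, 72.1% of them in cells with neither Cd4 nor Cd8 UMIs. Of the 336 Gcg cells 49 held Cpa3 and 5 held Cma1, another mast cell protease, and none held Ms4a2, the IgE receptor β chain. By pool, 13 of 110 and 36 of 226 Gcg cells held Cpa3, shares close to those of all kept cells, 1770 of 13795 and 1988 of 13010. Of all kept cells of these pools 98 and 194 held Cma1 and 60 and 90 held Ms4a2.

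Cells with Gcg were next compared with cells without it in the same pools and the same state, so that the split uses the UMIs that chose the gene and Gcg itself is no result. Among Gzmk+ Pdcd1+ cells of the Cd4 class 42 and 68 cells had at least 2 Gcg UMIs and 282 and 342 had none, with median depths of 6145 and 6679 against 5105.5 and 6009.5 UMIs. Of 8027 genes 29 were called (0.361%), 14 higher (0.174%) and 15 lower (0.187%), the 14 including Gcg, which made the split. Spp1 was at 1664 and 856 CPM against 357 and 214 (2.12 ± 0.10, adjusted p = 1.67e-09), and a UMI of it was in 31.0% and 51.5% of cells against 21.3% and 20.8%. Lag3 was at 1438 and 717 against 689 and 525 (0.76 ± 0.12, adjusted p = 0.00945), and Irf8, an interferon-regulated transcription factor, at 110 and 86.8 against 39.0 and 42.1 (1.23 ± 0.23, adjusted p = 0.0322).

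Among the 15 genes lower in the Gcg cells, of which some are named here after their values were seen, was Cd69, a surface protein of activated T cells. It was at 181 and 238 CPM against 377 and 487 (-1.05 ± 0.13, adjusted p = 0.000473), and Jun, Fos and Fosb, subunits of AP-1, were lower as well by 0.89, 0.71 and 0.78 on the log2 scale. Of the naive list 2 of 7 were lower, Tcf7 (-1.23 ± 0.25, adjusted p = 0.0418) and Klf2 (-0.81 ± 0.15, adjusted p = 0.0276). No gene of the cytotoxic list was called among 9 tested and only Lag3 of 8 inhibitory genes, and none of 18 cyclic AMP genes was. Values without a call were Csf1 at 80.6 and 68.1 against 27.7 and 34.4 (1.20 ± 0.25, adjusted p = 0.0552) and Il10 at 213 and 169 against 123 and 127 (0.57 ± 0.16, adjusted p = 0.249). Foxp3, the factor of regulatory T cells, was in 0% and 2.94% of the Gcg cells against 0.709% and 2.92%. DESeq2, and edgeR without the pool as a block, called only 2 genes each, and 36 of the first pool's 110 cells with Gcg came from 1 clonotype, so that clonotype and Gcg cannot be fully told apart here.

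Cells with Glp1r were compared in the same way among Gzmk+ Pdcd1+ cells of the Cd8 class, 64 and 623 cells with at least 1 UMI against 417 and 1382 with none, at median depths of 6169.5 and 6152 against 5676 and 6107 UMIs. Of 9814 genes 520 were called (5.3%), 162 higher (1.65%) and 358 lower (3.65%), the 162 including Glp1r, which made the split and is no result. Without the TRAV6-6 TRAJ48 clonotype 203 of the second pool's 623 cells with Glp1r and 938 of its 1382 without it remained. In the first pool 43 of all 92 cells with Glp1r came from 1 clonotype, so that clonotype and Glp1r cannot be fully told apart here. Gzma, which encodes granzyme A, was at 3722 and 3361 CPM against 1065 and 1460 (1.45 ± 0.10, adjusted p = 5.41e-08), and 73.4% and 74.2% of the Glp1r cells held it against 30.0% and 44.4%. Mrc2, an endocytic collagen receptor, was at 84.7 and 81.9 against 18.0 and 31.4 (1.5 ± 0.17, adjusted p = 2.48e-05), and Cd200r2, a receptor of the CD200 receptor family, at 152 and 169 against 30.5 and 77.5 (1.38 ± 0.18, adjusted p = 0.000102). Ly6c2 and Ly6a, surface proteins of memory and interferon-exposed T cells, were lower, the first at 29.1 and 58.1 against 603 and 413 (-3.15 ± 0.17, adjusted p = 2.52e-09). All 6 alternatives kept the calls of Gzma, Mrc2, Ly6c2 and Ly6a.

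Among Glp1r cells the cytotoxic list had 6 of 10 genes higher and Ifng lower, and the inhibitory list 5 of 8 higher including Pdcd1, which with Gzmk defined the state. The changes were small: Prf1, the pore-forming perforin, differed by 0.39 ± 0.11 (adjusted p = 0.0431), Lag3 by 0.42 ± 0.09 (adjusted p = 0.00607) and Tox, a factor of chronically stimulated cells, by 0.46 ± 0.10 (adjusted p = 0.0062). All 7 naive genes were lower, at a median of -1.59 against 0.00 for all genes, with Tcf7 at 31.5 and 12.6 against 75.6 and 41.7 (-1.66 ± 0.19, adjusted p = 2.74e-05). None of 20 cyclic AMP genes was called. Spp1 and Il10 were lower in CPM, by 0.75 and 0.78 on the log2 scale, although a UMI of Spp1 was in 9.38% and 9.79% of the Glp1r cells against 7.43% and 7.60%, and both calls were lost with DESeq2 and without the pool as a block (adjusted p up to 0.295 and 0.489). Cd7 was higher by 0.80. Without the clonotype of 1106 cells 803 genes were called, and without the pool as a block 65.

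**Figure D4:**
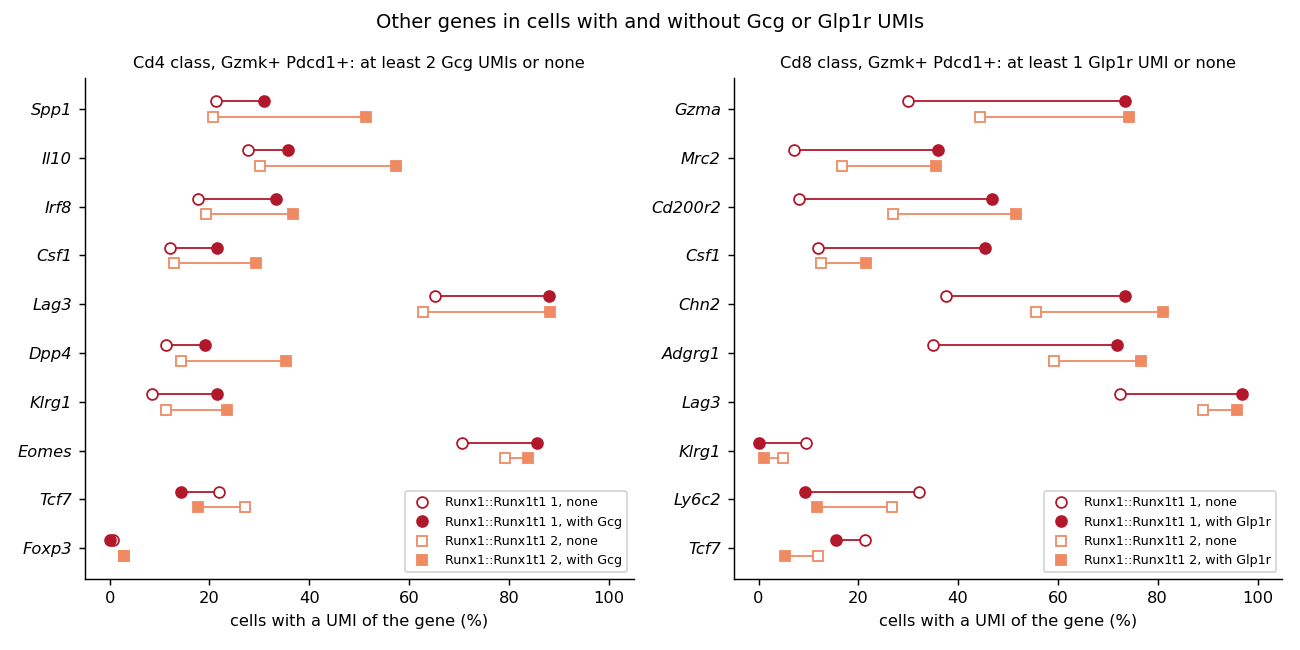
Share of cells with a UMI of the named genes (percent) in Gzmk+ Pdcd1+ cells with (filled) and without (open) the member gene, for the 2 Runx1::Runx1t1 pools: at least 2 Gcg UMIs in the Cd4 class, and at least 1 Glp1r UMI in the Cd8 class. Spp1 was in 31.0% and 51.5% of the Gcg cells against 21.3% and 20.8%, and Gzma in 73.4% and 74.2% of the Glp1r cells against 30.0% and 44.4%.

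Patterns across classes were compared over 55 sums of UMIs by pool, lineage class and Gzmk and Pdcd1 state, among 14456 genes of at least 50 UMIs. Most like Gcg by Pearson's r of log2(CPM + 1) were Rtkn (0.77), Tent5c (0.77), a poly(A) polymerase, and Nab1 (0.76), and the others among the first 10 were Dnase1l3, Serpina9, Zgpat, Baz1a, Ehd1, Serpina12 and Cd2 (0.70). Most like Glp1r were Tmprss6 (0.86), a membrane serine protease, Cd200r2 (0.85) and Mrc2 (0.84), followed by Ppp1r3g, 2900026A02Rik, Ccdc80, Sept4, Sh2d2a, Adrb1 and Tmcc3 (0.74). The 2 members had an r of 0.24 with each other. These values are a description: the sums share their libraries, the Gcg counts of several sums come from few cells, and many sums hold none.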

How the data were processed

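The authors processed the reads with Cell Ranger (version 6.1.2, per the labels) against GRCm38 and deposited tables of whole UMI counts per gene and cell barcode for 4 gene expression libraries and tables of TCR contigs for the same 4 pools. The annotation, and whether strand was used, are not given in the sources used here. The numbers given here were computed from those deposited counts. Barcodes with under 200 genes or over 15% mitochondrial UMIs were removed, and doublets were scored with Scrublet in scanpy (version 1.11.5). Its automatic threshold was kept where it marked at least 0.5% of barcodes, which it did in the second Runx1::Runx1t1 pool alone, and otherwise the 5% of barcodes with the highest score were removed, in all 573 to 768 per library. Empty droplets were not analysed here. Non-T barcodes were those without Cd3 UMIs and with at least 3 UMIs of B, myeloid or erythroid genes.

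UMIs were summed per pool and class of at least 20 cells and tested with edgeR (version 4.0.16, R 4.3.3; filterByExpr, TMM, quasi-likelihood test, Benjamini-Hochberg over all genes tested, 0.05), with the pool as a block for comparisons within pools. Tested on simulated data with 200 changed genes, it recovered from 111 (cells with and without Gcg) to 174 (Gzmk+ Pdcd1+ against Gzmk- Pdcd1- cells) of them. The 111 were 32 of 2-fold and 79 of 4-fold changes. The simulation gave all genes the same dispersion and held no pool or clonotype effects, so recovery in the real counts may be lower. Replicates are pools of mice, so with 2 per group the p-values between the groups measure the spread between these pools. In comparisons within pools the block takes out that spread, and the p-values measure how the difference varied from pool to pool. Those of cells with and without Gcg or Glp1r rest on only 2 pools, with edgeR's variance estimates shared over genes. DESeq2 (version 1.42.0) was an alternative. Binomial intervals are exact at 95%, a count of 0 allows up to 3 counts, and both cover counting error only. Files of TCR contigs were used through their CDR3 nucleotide sequences, and of several contigs of a chain in a cell the 1 of most UMIs was taken.

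CPM values are UMIs of a gene over all UMIs of the cells summed. The 2 genes and all gene lists were chosen with earlier results of these data known. The named genes were both members, list genes called in any of the first 3 comparisons, the list genes of most UMIs, the 10 genes most like each member, and the 10 clonotypes with most UMIs of both genes. The comparisons in the Cd4 class and of cells with and without a member's UMIs, and the genes named from them outside the lists, were chosen after the data were seen. Protein sequences were not used here.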

Additional observations from a re-analysis of the deposited data

How the results depend on the processing

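Of 130 alternative values of counts, shares and levels, 92 stayed within their limits, 37 moved and 1 changed sign. For shares and levels the limit was the SD of the 2 Runx1::Runx1t1 pools, and for counts of calls a fold. For Glp1r that SD, 6.84 percentage points and 12.7 CPM in the Cd8 class, was larger than the group difference itself. A complete loss of the Glp1r difference would thus count as staying, so this tally cannot show that it is robust. Of 1274 alternative log2 fold changes of named genes, 1090 kept direction and call, 182 lost the call and 2 changed sign: Grk6 between Gzmk+ Pdcd1+ and Gzmk- Pdcd1- cells without normalization factors (0.0061, adjusted p = 0.965) and Ccr7 between the groups in Gzmk+ Pdcd1+ cells with doublets kept (0.25, adjusted p = 0.787). Where no cause is named, the cause was not tested. The level difference of Glp1r in the Cd4 class, 0.540 CPM, became -0.211 with each clonotype counted once per pool.

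Between the groups in the Cd8 class edgeR called 8 genes, DESeq2 833, edgeR without normalization factors 44, without the filter on low counts 762 and without the TRAV6-6 TRAJ48 clonotype 370, and 4 to 1334 with 1 pool left out. In its Gzmk+ Pdcd1+ cells the 109 calls became 286, 203, 711 and 287 in the same order, and 0 to 552 with 1 pool left out. Between Gzmk+ Pdcd1+ and Gzmk- Pdcd1- cells the 3874 calls became 1727 to 4490 with 1 pool left out, and their split of 1657 higher and 2217 lower became 4152 and 1275 without normalization factors, when the median of all genes moved from -0.04 to 0.29. In the Cd4 class the 240 calls became 279 to 619. For cells with Gcg the 29 calls became 2 with DESeq2, 13 without normalization factors, 111 without the filter and 94 with doublets kept, and for cells with Glp1r the 520 calls became 123 with DESeq2 and 803 without the TRAV6-6 TRAJ48 clonotype. No pool could be left out of the latter pair, which have only 2 pools.

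Replicate numbers are shared between groups, but the labels do not say that they mark a batch, and with 2 pairs the correlations of same-numbered deviations (0.190 in the Cd8 class, 0.0531 in its Gzmk+ Pdcd1+ cells, 0.197 in the Cd4 class) do not settle a pairing. With the replicate number as a block 578, 564 and 314 genes were called there. Without the pool as a block the comparisons of cells with and without Gcg and Glp1r gave 2 and 65 calls.

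The difference in the share of Cd4 class cells with Gcg, 4.33 percentage points, was 2.93 to 5.74 with 1 pool left out and 1.39 with each clonotype counted once. The Gcg level there, 134 CPM, was 101 after thinning, 38.2 with each clonotype once and 519 in Gzmk+ Pdcd1+ cells alone. The Glp1r share of the Cd8 class, 5.89 percentage points, was 1.05 to 10.7 with 1 pool left out, 2.69 without its largest clonotype and 0.428 with each clonotype once. The Glp1r level, 11 CPM, was 40.0 in Gzmk+ Pdcd1+ cells alone and 1.96 to 20 with 1 pool left out, and that in the Cd4 class 2.24 in Gzmk+ Pdcd1+ cells alone. The Gcg level of the Cd8 class, 1.01, was 0.525 with each clonotype once. The control pools hold 14 and 15 Gzmk+ Pdcd1+ cells of the Cd4 class, which limits any comparison of Gcg within that state.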
